A study of Homo sapiens with 18 samples.

Results

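The 10 genes described here encode translation factors: EEF1A1, EEF1B2, EEF1D, EEF1G, EEF2 and EIF5A act in elongation, and EIF1, EIF4A1, EIF4A2 and EIF4G2 in initiation. They were given as a list of highly transcribed translation factor genes, and for each the gene body plus 5 kb on each side (hg19, GENCODE) was taken as its window. All 10 were found, among 20163 protein-coding gene windows treated the same way. Transcription was not measured in the peak lists, so that part of the label could not be checked.

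DNA-RNA hybrids were mapped by DRIP-seq, in which restriction-digested genomic DNA is immunoprecipitated with S9.6, an antibody that binds hybrids, and then sequenced. HCT116 cells, an established human colorectal carcinoma line, were untreated (NT) or received 10 μM camptothecin (CPT) for 5 or 60 min, in 2 biological replicates. From each replicate came 3 libraries: DRIP, DRIP after RNase H treatment of the digested DNA, and an input that served as control in peak calling. Cells of every group were harvested, washed and pelleted after the treatment, so that lysis followed CPT removal by some minutes in the CPT groups.

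An R loop forms when nascent RNA pairs with its DNA template behind or around RNA polymerase and leaves the other DNA strand unpaired. DNA topoisomerase I relaxes the supercoils that transcription makes, and CPT traps it on DNA as a cleavage complex (Top1cc). Translation factor genes of the kind studied here are housekeeping genes whose mRNAs are abundant in dividing cells, which makes their templates busy sites for RNA polymerase and topoisomerase I. The S9.6 antibody pulls down the whole restriction fragment that holds a hybrid, so a peak can be as long as that fragment.

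The lists hold peaks only, without read counts or scaling to the yeast spike-in, and the depth of each library is not in them. A DRIP list held between 30314 and 72879 peaks, and replicate 2 gave the longer list in each treatment. The RNase H lists of replicate 1 held 473, 3439 and 5392 peaks in NT, 5 min and 60 min, and those of replicate 2 held 15790, 50353 and 67188. A missing peak is a call below threshold in that library. Peaks of genomic DNA hold no marker by which the cell line could be checked.

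The DNA had been cut with Hind III (AAGCTT), Eco RI (GAATTC), Xba I (TCTAGA), Ssp I (AATATT) and Bsr GI (TGTACA), whose sites read the same on both strands. The fragment between the nearest cut sites on either side of the transcription start site (TSS) is called the TSS fragment. At each of the 6 cut sites below, peaks of these genes began or ended exactly there in 2 or more DRIP lists. They are examples, and sites upstream of EIF1, EIF4A1 and EIF4A2 that bounded a peak in 5 lists are not printed. Each line gives 26 bases of the GRCh37 plus strand, with the recognition site in capitals.
EEF1B2 Ssp I: tgaaaacaagAATATTccgcaaaaca
EEF1B2 Hind III: ggagtgaagaAAGCTTtgggcaaata
EIF4G2 Hind III: aaataggattAAGCTTttcaaagccg
EIF4G2 Bsr GI: gggggccgggTGTACAggactagcac
EIF5A Xba I: acgcatgcgtTCTAGAcgagacaagt
EEF2 Xba I: ggcgcggcgcTCTAGAatagaagctg
The Ssp I site of EEF1B2 (chr2:207023330-207023355) lies 1279 bp upstream of the TSS and bounded a peak in 3 of the 6 DRIP lists, both NT lists among them. Its Hind III site (chr2:207026077-207026102), 1468 bp downstream, bounded a peak in both NT lists and in no CPT list. The Hind III site upstream of EIF4G2 (chr11:10831416-10831441), the Xba I site upstream of EIF5A (chr17:7210482-7210507) and the Xba I site upstream of EEF2 (chr19:3985602-3985627) each bounded a peak in all 6 DRIP lists. The Bsr GI site downstream of the EIF4G2 start (chr11:10829403-10829428) did so in 3, both NT lists and 60 min replicate 1. Each of the 5 recognition sites occurs in 0.528% to 1.59% of all 26-base stretches of the genome.

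Over the 10 genes the 6 DRIP lists held 236 peaks, with 472 edges, and 226 of these edges (47.9%) lay exactly where one of the enzymes cuts. Among all peaks of a DRIP list the share was 25.7% to 33%. The member peaks were 270 to 38137 bp wide, and 47 of them were bounded by a cut site on both sides. The share of all peaks bounded on both sides is not given. Peak ends at these genes thus often coincided with cut sites, and where a hybrid lay inside a fragment cannot be told apart.

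All 10 genes had a DRIP peak in every one of the 6 DRIP lists, compared with 33 percent of all protein-coding windows. The share of all windows with a peak in both lists of a treatment was 44.8 percent in NT, 48.8 percent at 5 min and 58.8 percent at 60 min. The strongest peak of each gene was ranked by the authors' fold enrichment within its own list. The median over the 10 genes was at the 98.17th and 99.13th percentile in NT, the 98.05th and 99.53rd at 5 min and the 98.47th and 99.41st at 60 min. The highest peak was taken in windows that held up to 11 peaks, and the same median over all windows is not given. These ranks are thus not shown to be particular to the 10 genes. The difference of the median from NT was 0.14 percentile points at 5 min (two-sided exact permutation test over libraries, p = 1) and 0.289 at 60 min (exact p = 0.667). With DRIP peaks that overlap a peak of the matching RNase H library left out, these differences turned to -14.7 and -14.5 points. Genes with a peak in both replicates then numbered 8 in NT, 6 at 5 min and 5 at 60 min. The share of all windows under this filter is not given, and the RNase H lists were longer after CPT than in NT in both replicates. With 2 libraries against 2, an exact permutation test cannot go below p = 0.333, and both CPT comparisons share the NT lists. At 5 min the strongest peak ranked higher than in both NT lists at EEF1A1, EIF4A2 and EIF5A, 3 of 10 (19.4 percent of windows with a peak in all 6 lists), and lower at EEF1D, EIF4A1 and EIF4G2, also 3 of 10 (24.9 percent). Labels number the replicates, which the authors describe as biological, and p-values measure the spread between these libraries.

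In NT, the TSS fragment was wholly under peaks in both lists at 8 of the 10 genes, where 3.85 percent of all windows met the same condition. EEF1A1 had 23.4% and 85.6% of its TSS fragment covered, and EIF4A2 had 0% and 15.6%. After CPT the TSS fragment was wholly covered in both lists at 3 genes at 5 min (1.1 percent of all windows) and at 6 genes at 60 min (3.24 percent). The lower count at 5 min came with replicate 1, in which 7 of the 10 genes had a TSS fragment only partly covered, while in replicate 2 this held for EIF4A2 alone.

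**Figure D1:**
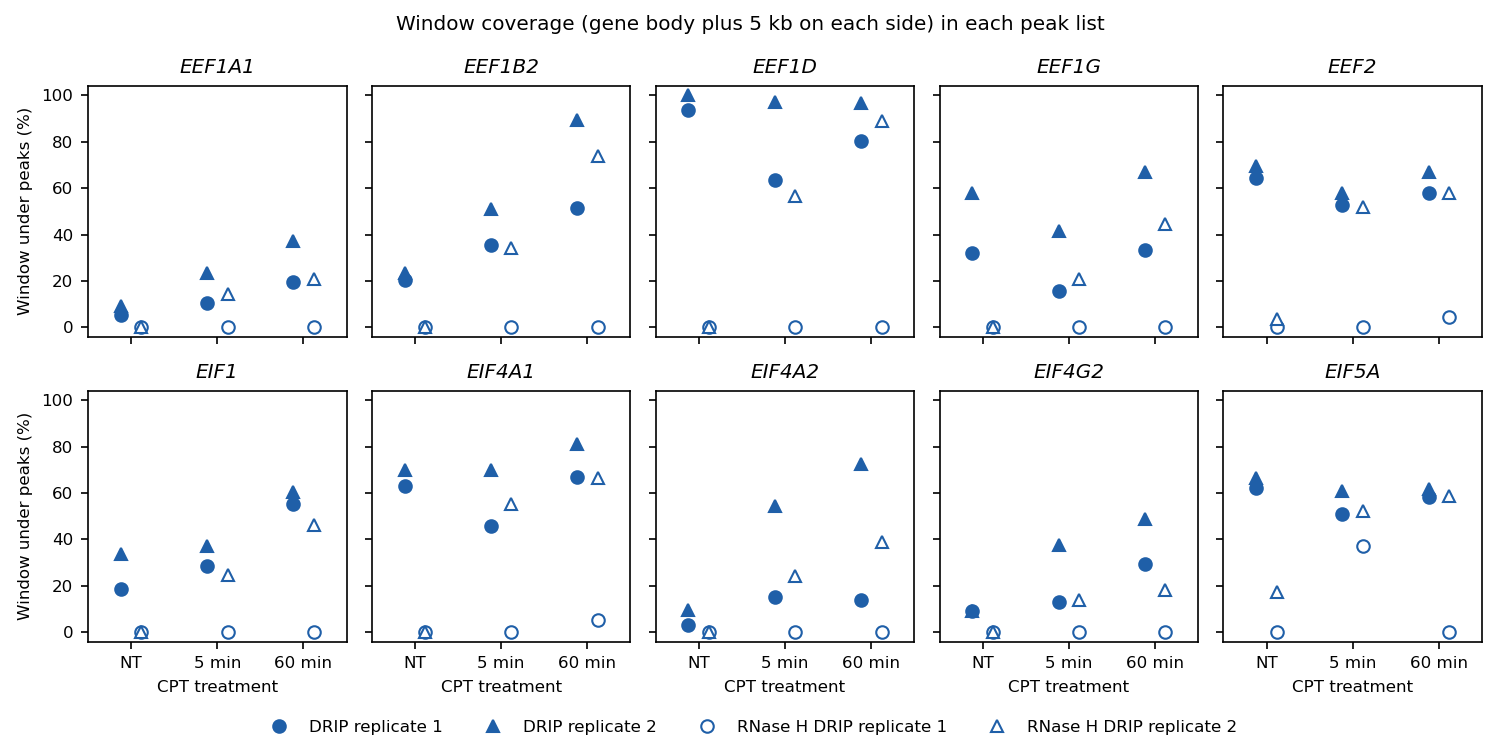
Percent of each gene window (gene body plus 5 kb on each side) under peaks in each list, by CPT treatment, for the 10 translation factor genes. Filled points are DRIP lists and open points RNase H DRIP lists, with circles for replicate 1 and triangles for replicate 2. EEF1A1, EEF1B2, EIF4A2 and EIF4G2 lie higher in both lists of each CPT time than in both NT lists, and the open circles sit at or near 0 except at EIF5A after 5 min.

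Averaged over the 10 genes, 37.2% and 45% of the window lay under DRIP peaks in the NT lists. After 5 min of CPT the values were 33.2% and 53.1%, one below and one above both NT values. The mean difference was 2.03 percentage points (43.1% against 41.1%, exact p = 1), and it was -4.06 points in replicate 1 alone and -4.04 points with 10 kb flanks. After 60 min the values were 46.6% and 68.2%, both above NT, a difference of 16.3 points (57.4% against 41.1%, exact p = 0.333, the smallest possible), which was 9.33 points in replicate 1 and 23.2 in replicate 2. Across all protein-coding windows the mean was 6.49% and 11.6% in NT, 3.48% and 8.58% at 5 min, and 7.34% and 15.6% at 60 min.

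A gene was counted as higher or lower when both CPT lists lay above or below both NT lists. At 5 min window coverage was higher at EEF1A1, EEF1B2, EIF4A2 and EIF4G2, or 4 of 10 genes, against 16.9 percent of windows with a DRIP peak. It was lower at EEF2 and EIF5A, 2 of 10, against 17.9 percent. At 60 min it was higher at the same 4 genes and at EIF1, 5 of 10, against 29.5 percent, and lower at EIF5A, 1 of 10, against 8 percent. The 2 counts share their NT lists. These calls carry no test, and within each replicate the list of 60 min was also the longest DRIP list. With DRIP lists cut to 30314 peaks each, the mean window difference over the 10 genes was 1.89 points at 5 min. At 60 min it was then 13.7 points (exact permutation test, p = 0.667).

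Outside the TSS fragment, the transcript body had higher mean coverage in each CPT list than in both NT lists. This zone was set apart after the values had been seen, and it exists for 9 genes, because the EIF5A transcript lies wholly within its TSS fragment. Mean body coverage was 37.5% and 51.1% in NT, 51.3% and 84.5% at 5 min, and 60.7% and 92.8% at 60 min. The 51.3% of 5 min replicate 1 lay just above the 51.1% of NT replicate 2, and the other CPT values lay further off. The difference was 23.6 points at 5 min (67.9% against 44.3%, exact p = 0.333) and 32.5 points at 60 min (76.8% against 44.3%, exact p = 0.333). Within replicate 1 it was 13.8 and 23.3 points, and within replicate 2 it was 33.4 and 41.8 points. With DRIP peaks left out by the same overlap with RNase H peaks, the differences of the means turned to -6.21 and -9.23 points, and those of window coverage to -12.6 and -8.79 points. That filter takes out 4 of the 119 member peaks of replicate 1 and 66 of the 117 of replicate 2, and its share over all peaks is not given.

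At 5 min body coverage was higher at 5 of the 9 genes, EEF1A1, EEF1B2, EIF4A1, EIF4A2 and EIF4G2, where 15.1 percent of all windows with a body to measure were higher. It was lower at EEF2 alone, against 15.4 percent. At 60 min it was higher at the same 5 genes (27.5 percent of all) and lower at EEF1D alone (7.26 percent). Coverage of the TSS fragment was higher at EEF1A1 and EIF4A2 at 5 min (6.75 percent) and at EIF4A2 alone at 60 min (12.8 percent). It was lower at no gene at either time (7.16 and 3.82 percent), and 8 of the 10 fragments were already wholly covered in NT.

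**Figure D2:**
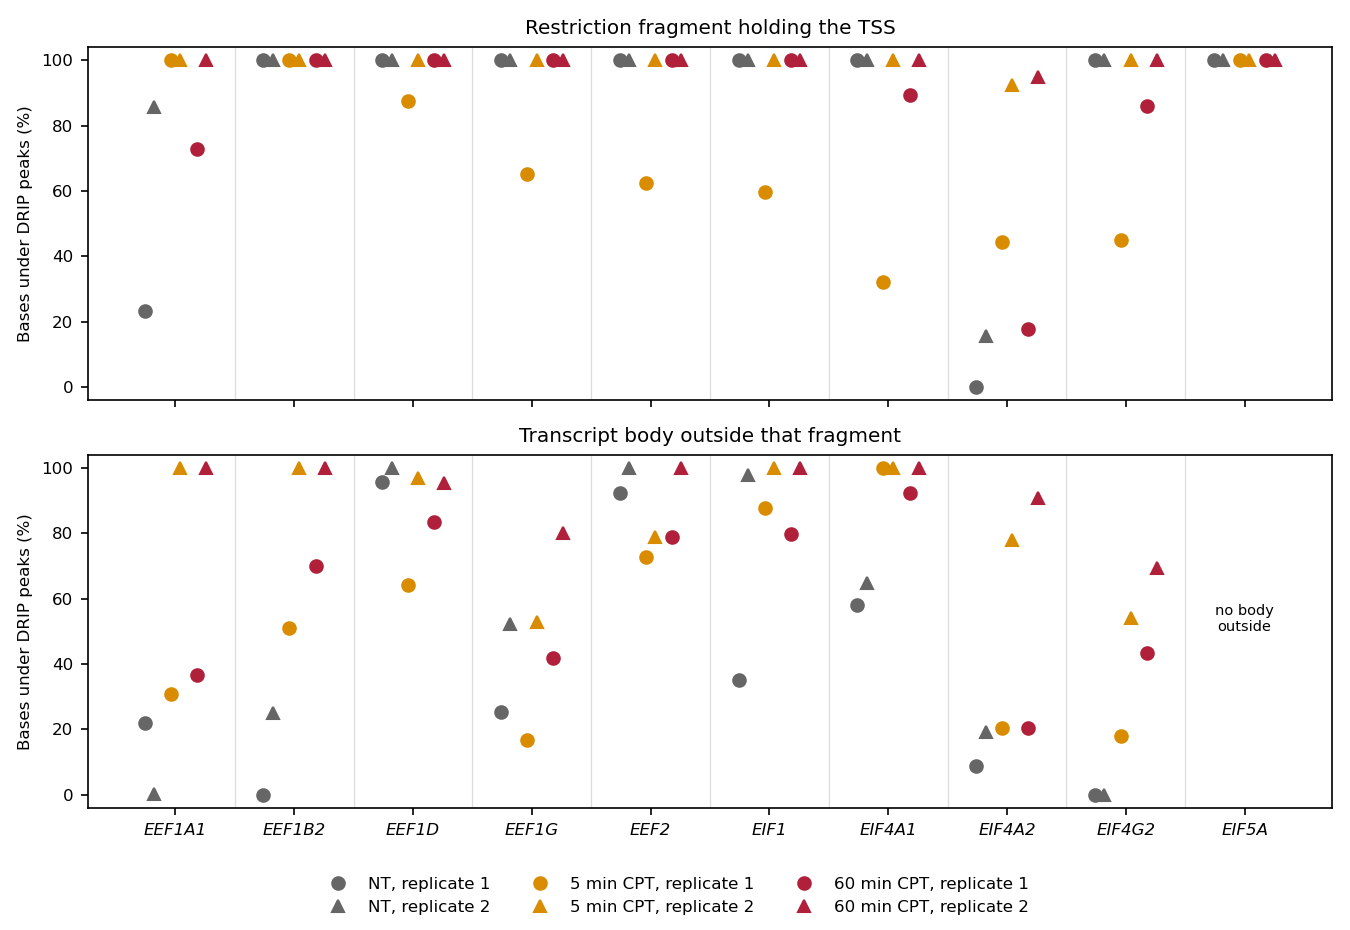
Percent of bases under DRIP peaks in the restriction fragment that holds the TSS (top) and in the rest of the transcript body (bottom) for each gene, with 1 point per list. Grey, orange and red mark NT, 5 min and 60 min of CPT, circles replicate 1 and triangles replicate 2. In NT the TSS fragment is at 100% in both lists of 8 genes, while the body of EEF1B2 and EIF4G2 goes from at most 25.1% in NT to between 17.9% and 100% after CPT. EIF5A has no body outside its TSS fragment.

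EEF1A1 encodes the elongation factor that brings aminoacyl-tRNA to the ribosome. The gene lies on the minus strand at chr6:74199031-74235310, and its annotated span is far longer than the 5283-bp canonical transcript. MTO1 also reaches into the window, so peaks there are not those of EEF1A1 alone. Window coverage was 5.23% and 9.38% in NT, 10.5% and 23.5% at 5 min, and 19.6% and 37% at 60 min, with no overlap between NT and either CPT time. Its strongest peak was at the 62.77th and 88.81st percentile in NT and between the 99.51st and 99.85th in the 4 CPT lists. In NT replicate 1 no peak covered the TSS, and the longest peak was 780 bp. At 5 min a 2893-bp peak in replicate 1 and an 8762-bp peak in replicate 2 covered it. At 60 min the peaks over the TSS were 2664 and 12370 bp long, and the longer one ran from 3637 bp upstream to 8732 bp downstream of the start, past the end of the transcript. EEF1A1 was the only one of the 10 genes whose strongest peak ranked higher than in both NT lists at 60 min, where 29.3 percent of windows with a peak in all lists did.

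EEF1B2, EEF1D and EEF1G encode subunits of the exchange factor that reloads EEF1A1 with GTP. At EEF1B2 (plus strand, chr2:207024309-207027652) both NT lists held the same 2749-bp peak, chr2:207023343-207026091, which is the Ssp I to Hind III fragment whose ends are printed above. At 5 min this peak reached 3544 bp in replicate 1 and 5151 bp in replicate 2, ending 2267 and 3818 bp downstream of the TSS. At 60 min it was 3781 and 8144 bp long and ended 2015 and 6858 bp downstream, the latter beyond the 3034-bp transcript. The longer peaks extended on the downstream side, while the upstream end stayed between 1276 and 1332 bp upstream of the start, except at 60 min in replicate 1 (1765 bp). Body coverage was 0% and 25.1% in NT, 50.9% and 100% at 5 min, and 70% and 100% at 60 min. The gene hosts 2 snoRNA genes, SNORD51 and SNORA41, in its body. NDUFS1 also reaches into the window, so peaks there are not those of EEF1B2 alone.

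EEF1D (minus strand, chr8:144661867-144681711) had the highest coverage of the 10 genes in NT, 93.7% and 100% of its window. A single 38137-bp peak spanned the whole window in NT replicate 2. After 5 min replicate 1 held 11 peaks with 63.6% of the window covered, while replicate 2 held 3 peaks and 97%. After 60 min the values were 80.2% and 96.7%. Window coverage of the groups overlapped at both times, and body coverage at 60 min (83.5% and 95.3%) lay just below NT (95.6% and 100%). Its window also holds the genes NAPRT, TIGD5 and PYCR3, so the peaks are not those of EEF1D alone.

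EEF1G (minus strand, chr11:62327068-62341558) did not separate by treatment in coverage. Its window coverage was 31.9% and 57.7% in NT, 15.7% and 41.5% at 5 min, and 33.5% and 66.9% at 60 min. AHNAK and TUT1 also reach into the window, so peaks there are not those of EEF1G alone. A 2110-bp peak bounded by Eco RI sites, 1808 to 3917 bp downstream of the TSS, with further Eco RI sites inside it, was present in NT replicate 1, 5 min replicate 2 and 60 min replicate 1. Its strongest peak ranked at the 97.72nd and 98.94th percentile in NT and at the 95.89th and 96.66th at 60 min, below both NT lists. EIF4G2 was the other gene with a lower rank at 60 min, 2 of 10 against 15.3 percent of windows.

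EEF2, the translocase of elongation, lies on the minus strand at chr19:3976054-3985461 and hosts SNORD37. Coverage of its window was 64.5% and 69.7% in NT, 52.9% and 58% at 5 min, and 57.7% and 66.9% at 60 min. Both 5 min values lay below NT, and the 60 min values overlapped NT. DAPK3 also reaches into the window, so peaks there are not those of EEF2 alone. The peak over the start always began at the Xba I site 156 bp upstream of the TSS. It was 8573 and 10741 bp long in NT, 470 and 7375 bp at 5 min, and 7375 and 10648 bp at 60 min, and next to the short one in 5 min replicate 1 lay a separate 4618-bp peak. The strongest peak of the window ranked between the 99.81st and 99.99th percentile in all 6 lists. Coverage was thus lower at 5 min while the rank overlapped NT, and a rank is a position within each list and not an amount of hybrid.

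EIF5A, the factor that carries hypusine and helps ribosomes through difficult peptide sequences, lies on the plus strand at chr17:7210318-7215782. Its TSS fragment, 7211 bp from the printed Xba I site to a Hind III site, was the longest of the 10 and contains the whole canonical transcript. It was wholly covered in all 6 lists. The same peak, chr17:7210493-7218346 (7854 bp), appeared in NT replicate 1, both 5 min lists and 60 min replicate 2. In NT replicate 2 it ran on to 14787 bp. Window coverage was 62.3% and 66.5% in NT, 50.8% and 60.8% at 5 min, and 58.2% and 61.7% at 60 min, lower at both times with differences of -8.63 and -4.47 points. The lower coverage lay downstream of the gene, where coverage of the 5 kb flank was 86.9% and 100% in NT and between 51.3% and 85.2% after CPT. GPS2 and NEURL4 also reach into this window.

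**Figure D3:**
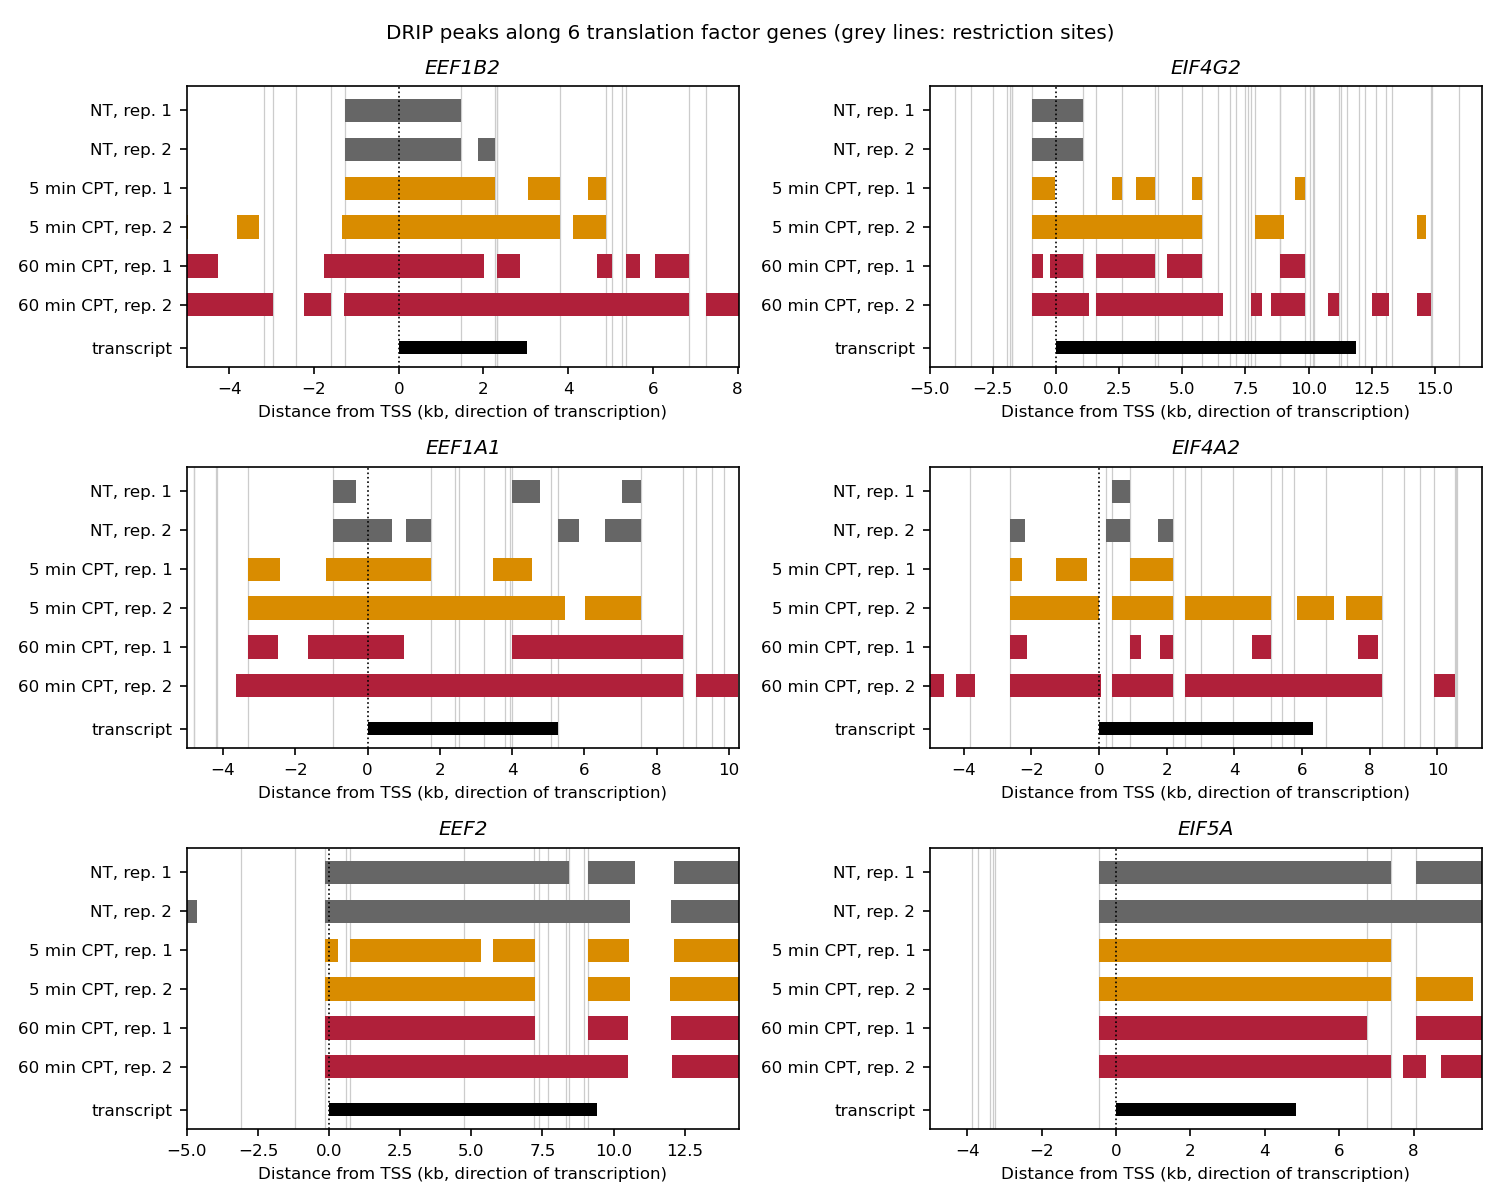
DRIP peaks (bars) in each of the 6 DRIP lists along EEF1B2, EIF4G2, EEF1A1, EIF4A2, EEF2 and EIF5A, from 5 kb before the TSS to 5 kb past the end of the canonical transcript (black bar), by distance from the TSS in kb in the direction of transcription. Grey vertical lines are cut sites of the 5 enzymes. The longest NT peak of EEF1B2 and the NT peak of EIF4G2 fill the fragment at the start, NT replicate 2 of EEF1B2 has a second, 392-bp peak downstream, and the CPT peaks cover more of both transcripts, whereas EEF2 and EIF5A are covered over most of the transcript in NT already.

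EIF4G2 (minus strand, chr11:10818597-10830487), which hosts SNORD97 and encodes a scaffold related to eIF4G that works in alternative modes of initiation, had a layout like that of EEF1B2. CTR9 and ZBED5 also reach into the window, so peaks there are not those of EIF4G2 alone. Both NT lists held a single peak, chr11:10829414-10831430, the 2017-bp fragment between the printed Hind III and Bsr GI sites. Body coverage outside this fragment was 0% in both NT lists, 17.9% and 54.2% at 5 min, and 43.4% and 69.4% at 60 min. At 5 min replicate 2 joined the start to 5768 bp downstream in a 6726-bp peak, while replicate 1 held 5 peaks of at most 909 bp. The percentile of its strongest peak went the other way, 98.63 and 98.90 in NT, 92.22 and 96.52 at 5 min, and 87.69 and 90.15 at 60 min. Peaks thus covered more of the gene while the strongest of them stood lower within its list.

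EIF4A1 and EIF4A2 encode the paralogous RNA helicases of the cap-binding complex eIF4F. EIF4A1 (plus strand, chr17:7476142-7482324) hosts SNORA48 and SNORD10, and SENP3, CD68, MPDU1 and the SENP3-EIF4A1 readthrough gene reach into its window. Body coverage was 57.9% and 64.9% in NT, 100% in both 5 min lists, and 92.3% and 100% at 60 min, with no overlap with NT. Window coverage did overlap, at 63.2% and 70.1% in NT, 46% and 70% at 5 min, and 66.8% and 81.2% at 60 min. In NT a gap separated a start peak ending at most 1579 bp downstream from a second peak that began at least 3220 bp downstream. At 5 min one peak ran through this gap to 7481 bp in both replicates, and at 60 min one of 11820 bp did so in replicate 2.

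EIF4A2 (plus strand, chr3:186500994-186507686) hosts 5 annotated snoRNA genes and had the lowest mean NT coverage of the 10. Its window coverage was 3.2% and 9.66% in NT, 15% and 54.5% at 5 min, and 14% and 72.7% at 60 min. All CPT values lay above NT, but those of replicate 1 were close to the higher NT value, and replicate 2 gave most of the mean difference of 28.3 points at 5 min (34.8% ± 27.9 against 6.43% ± 4.57, SD, n = 2). No peak covered the TSS in NT or at 5 min, and one did at 60 min in replicate 2. The TSS fragment went from 0% and 15.6% in NT to 44.4% and 92.5% at 5 min and 17.8% and 94.8% at 60 min. This fragment lies mostly upstream of the start, between an Xba I site 2629 bp upstream and a Hind III site 200 bp downstream. RFC4 also reaches into the window, so its peaks are not those of EIF4A2 alone. The paralogs thus started from very different coverage in NT, and both had more of the body covered after CPT.

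EIF1, which helps the small ribosomal subunit select the start codon, lies on the plus strand at chr17:39845137-39848920, and no other protein-coding gene reaches into its window. Its TSS fragment of 1187 bp was the single NT peak over the start in replicate 1, while replicate 2 had one of 4628 bp. Window coverage was 18.5% and 33.9% in NT, 28.6% and 37.1% at 5 min, and 55.2% and 60.6% at 60 min. Only the 60 min values lay above both NT lists, by a mean of 31.7 points (57.9% ± 3.8 against 26.2% ± 10.9, SD, n = 2). Body coverage outside the TSS fragment was 35% and 97.9% in NT, 87.6% and 100% at 5 min, and 79.8% and 100% at 60 min. Of the downstream 5 kb, 7.62% and 0.94% were covered in NT, 15.4% and 22.1% at 5 min, and 83.5% and 86.9% at 60 min, and in replicate 2 one 6858-bp peak joined the start to 6637 bp downstream.

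Coverage in untreated cells differed widely among the genes and varied with both GC content and the density of cut sites. Ordered by mean NT coverage the genes were EEF1D (96.8% ± 4.48, SD, n = 2), EEF2 (67.1% ± 3.62), EIF4A1 (66.7% ± 4.82), EIF5A (64.4% ± 2.99), EEF1G (44.8% ± 18.2), EIF1 (26.2% ± 10.9), EEF1B2 (22.1% ± 2.08), EIF4G2 (9.21% in both), EEF1A1 (7.31% ± 2.94) and EIF4A2 (6.43% ± 4.57). EEF1D stood apart, the ranges of EEF2, EIF4A1 and EIF5A overlapped, as did those of EEF1G and EIF1, those of EIF1 and EEF1B2, and those of EIF4G2, EEF1A1 and EIF4A2. Spearman's rho of mean NT coverage with GC content was 0.988 over the 10 windows and 0.637 over all 20163 windows. With cut sites per kb it was -0.818 and -0.647. GC content and site density are themselves tied, because Ssp I and the other sites are rich in A and T, and windows with few sites have long fragments, so the 2 properties cannot be told apart here. Window GC had a median of 49.2% over the 10 genes (41.4% to 62.2%) and 44.7% over all windows, and the TSS fragment a median of 2732 bp (752 to 7211 bp) and 1916 bp. After CPT rho with GC was 0.758 at 5 min and 0.794 at 60 min over the 10 windows (0.362 and 0.422 over all windows), and with cut sites per kb it was -0.867 and -0.733 (-0.405 and -0.45 over all windows). The genes higher at both CPT times, EEF1A1, EEF1B2, EIF4A2 and EIF4G2, were the 4 with the lowest GC content (41.4% to 44.8%). These 4 also had the lowest NT coverage.

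**Figure D4:**
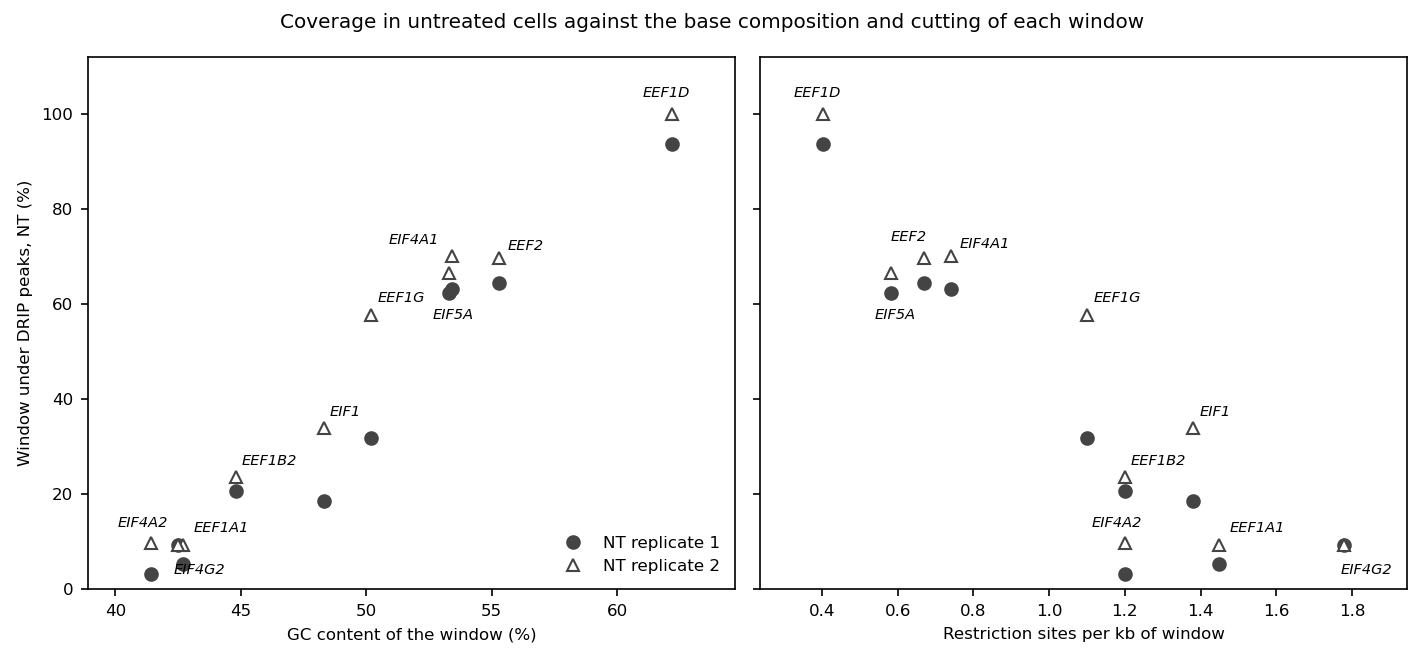
NT window coverage (percent of bases under DRIP peaks, y axis) of the 10 genes against the GC content of the window (left, percent) and the number of restriction sites per kb (right). Filled circles are NT replicate 1 and open triangles NT replicate 2, named at the higher point. Coverage is higher with GC, from EIF4A2 at 41.4% GC to EEF1D at 62.2% GC, and lower with site density, from 0.402 to 1.78 sites per kb.

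RNase H digestion before the immunoprecipitation removes the RNA of hybrids, so its lists serve as background. Over the 10 genes, mean window coverage was 47.2% in the 6 DRIP lists and 15.5% in the 6 RNase H lists, a difference of 31.7 points (two-sided exact permutation test, p = 0.026, n = 6 lists each). The RNase H values by list were 0% and 2.08% in NT, 3.74% and 34.8% at 5 min, and 1.01% and 51.5% at 60 min. The high values were the replicate 2 lists after CPT, and the other 4 lists held at most 3.74%. Within replicate 1 the mean was 39% in DRIP and 1.58% in RNase H lists, a difference of 37.4 points, and within replicate 2 it was 55.4% and 29.5%, a difference of 26 points (exact p = 0.1 and 0.2, where 3 lists against 3 cannot go below 0.1).

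In NT no gene had a peak in both RNase H lists (0.863 percent of all windows), and replicate 2 had peaks at EEF2 and EIF5A (28.9 percent). At 5 min EIF5A alone had a peak in both (8.24 percent), with coverage of 37.4% and 52.2%. At 60 min EEF2 and EIF4A1 did (13 percent), with 4.57% and 5.49% of the window in replicate 1. In replicate 2 all 10 genes had an RNase H peak at 5 min (61 percent of all windows) and at 60 min (68.6 percent). Of the member DRIP peaks of replicate 1, 4 of 119 met a peak of the matching RNase H list, and of those of replicate 2, 66 of 117. In 60 min replicate 2 the share was 75%. The same shares over all peaks of each DRIP list are not given, so the overlap is not shown to be particular to these genes. The higher DRIP coverage after CPT in replicate 2 therefore stands beside RNase H coverage that was also high, and how much of it resisted digestion was not measured in read counts. In replicate 1, where RNase H peaks were few, mean body coverage was also higher after CPT than in NT. Its 5 min list lay below its NT list in mean window coverage (33.2% against 37.2%) and mean TSS fragment coverage (69.6% against 82.3%). Its 60 min list lay above NT in both (46.6% and 86.6%). By gene, body coverage in its 5 min list was lower than in NT at EEF1D, EEF1G and EEF2, and higher at the other genes measured.

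Gene by gene, coverage was higher in DRIP than in RNase H lists at all 10 genes by mean, from 11.7 points at EEF1A1 to 64.3 points at EEF1D. Each DRIP list was longer than the RNase H list of the same treatment and replicate. The share of all windows with a higher DRIP mean is not given, so whether this is particular to the 10 genes cannot be told. The exact permutation test of 6 lists against 6 was run for 17287 windows with a peak in any list. None passed after Benjamini-Hochberg adjustment (0 percent), and 3277 had an unadjusted p under 0.05. With 6 lists against 6 the exact p of a window cannot go below 0.00216. EEF2 had the smallest exact p of the 10 (0.00649, adjusted p = 0.221; 61.6% ± 6.41 against 19.7% ± 27.4, SD), and EIF4A2 the largest (0.221, adjusted p = 0.473; 28.2% ± 28.3 against 10.6% ± 17). The other 8 had exact p between 0.00866 and 0.126.

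Other genes of the translation machinery were taken from lists of 39 further initiation factor genes, 14 further elongation, termination and hypusination genes and 80 cytosolic ribosomal protein genes. A DRIP peak in all 6 lists was present at 23 of 39, 6 of 14 and 67 of 80 of them. Body coverage higher in both lists than in both NT lists was found at 14 of 37, 5 of 13 and 40 of 76 measured genes at 5 min, and at 23 of 37, 6 of 13 and 43 of 76 at 60 min. It was lower at 1, 2 and 4 genes at 5 min and at 0, 1 and 0 at 60 min. In mean body coverage the ribosomal protein genes (32% and 45.1% in NT, 60% and 82.6% after 5 min, and 60.8% and 88.6% after 60 min) lay near the 10 translation factor genes in each list. The further initiation factor genes (8.92% and 12.6%, 8.72% and 24.9%, 17.4% and 41.9%) lay lower in each list. So did the further elongation, termination and hypusination genes (16.9% and 20.7% in NT, 10.1% and 22.2% after 5 min, and 21.7% and 26.2% after 60 min). Their 5 min replicate 1 value lay below both NT values. The TSS fragment was wholly covered in both NT lists at 24 of 80 ribosomal protein genes, 4 of 39 initiation factor genes and 1 of 14 of the third list.

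**Figure D5:**
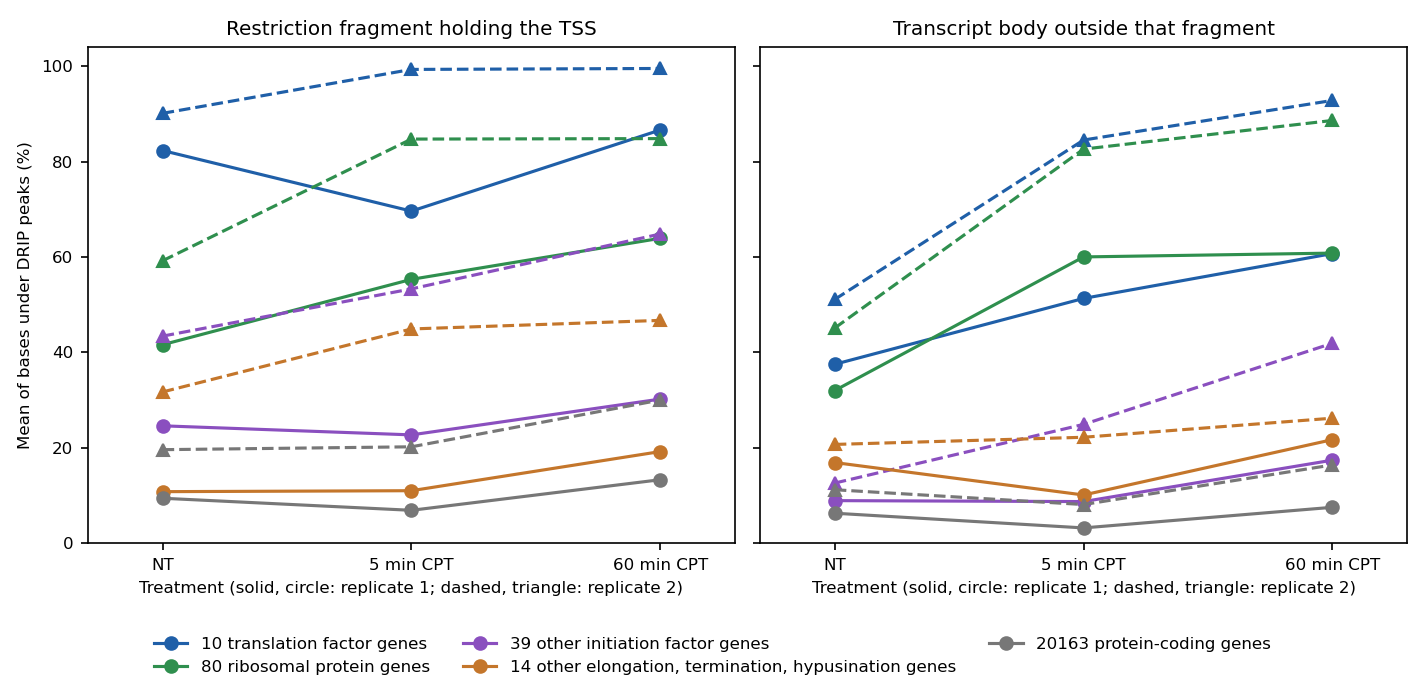
Mean percent of bases under DRIP peaks in the TSS fragment (left) and in the rest of the transcript body (right), by treatment, for the 10 translation factor genes, 3 other lists of translation genes and all protein-coding genes. Solid lines with circles are replicate 1, dashed lines with triangles replicate 2. The body means of the 10 genes go from 37.5% and 51.1% in NT to 60.7% and 92.8% at 60 min, beside 60.8% and 88.6% for ribosomal protein genes.

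Of these lists, the genes with the highest mean DRIP coverage were EIF3G (72.1%), EIF6 (57.8%) and EIF4G1 (55.2%) among initiation factors. Among the second list they were EEF1A2 (79.8%), the tissue-restricted paralog of EEF1A1, and DHPS (71.6%) and DOHH (46%), the enzymes that make the hypusine of EIF5A. EEF1A2 had 89% and 97.9% of its window covered in NT, 50.2% and 73.2% at 5 min, and 81.4% and 87.3% at 60 min. The mean of EEF1A1 over the 6 DRIP lists was 17.5%, in a window of 46280 bp that holds a 5283-bp canonical transcript. The length of the EEF1A2 window is not given, so the levels of the paralogs cannot be compared. Coverage at EEF1A2 was lower in all 4 CPT lists than in both NT lists, whereas at EEF1A1 it was higher in all 4. Among ribosomal protein genes RPS2 (81%), RPL35 (80.6%) and RPS21 (78.4%) came highest.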

How the data were processed

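The 18 samples are 6 DRIP, 6 RNase H DRIP and 6 input libraries of HCT116 cells, grouped by the treatment and replicate in their labels; 12 peak lists were analysed. Before deposit the authors used Cutadapt for trimming, BWA for alignment to hg19, and filters for blacklisted regions and duplicates. MACS2 then called the peaks of every library with its input as control. Each replicate pooled parallel immunoprecipitations, and RNase H digestion was applied to part of the same DNA. The deposited fold enrichment over input was used only as a percentile within its list. Alternatives alone drew on the significance that the authors deposited as −log10 p and −log10 q. The calling threshold is not given in the sources used here, and the lowest −log10 q was 1.3 to 1.31. Depth is unknown from the lists.

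Here, bases under peaks were counted in each window of GENCODE release 44 protein-coding genes on GRCh37, with an overlap of at least 1 bp counting as a peak, and restriction sites were read from the GRCh37 sequence. Peak edges counted as at a site only when exact. Lists were compared with two-sided exact permutation tests over libraries, and the all-gene test was adjusted by Benjamini-Hochberg. Calls by non-overlap need both CPT lists beyond both NT lists. All 10 genes are named, with the 3 of highest DRIP coverage from each other list and the 3 windows most alike. The genes and lists were chosen with earlier results of these data known. Coverage and the all-gene test were tested on simulated lists. Python 3.11.15, NumPy 2.4.6, pandas 2.3.3, SciPy 1.17.1, pysam 0.24.0 and Matplotlib 3.10.9 were used. Alternatives were another flank (none, 10 kb), the canonical transcript, a minimum −log10 q of 3, lists cut to one length, ranks by −log10 p, summits in place of whole peaks, an RNase H filter, the replicate as a block, and each replicate left out. The promoter sequence table, of another build, was not used here.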

Additional observations from a re-analysis of the deposited data

How the results depend on the processing

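Of 111 recomputed values, 94 kept their direction and their side of the threshold, with counts of genes within 1.5 times the reported one. An exact permutation test of 2 lists against 2 cannot go below p = 0.333, so the CPT comparisons could not change side. All 10 genes had a peak in each DRIP list, so the number of genes with a peak had no room to rise. The 94 is thus no measure of how firm the CPT differences are. The RNase H filter, which leaves out DRIP peaks that meet an RNase H peak of the same library pair, gave most of the changes. With it window coverage was -12.6 points from NT at 5 min and -8.79 at 60 min, body coverage -6.21 and -9.23 points, and the median percentile -14.7 and -14.5 points. The number of genes with a peak differed by -1 and -1.5, and 8 genes in NT, 6 at 5 min and 5 at 60 min had a peak in both replicates. These filtered counts have no share of all windows beside them. This filter removes 66 of the 117 member peaks of replicate 2 and 4 of the 119 of replicate 1, and its share over all peaks is not given. With 10 kb flanks the 5 min window difference was -4.04 points, and with the gene body alone the median percentile at 60 min differed by -0.371; the cause was not tested. With each replicate left out, the 5 min window difference lay between -4.06 and 8.13 points and the 60 min one between 9.33 and 23.2, the body difference from 13.8 to 33.4 and from 23.3 to 41.8 points, the 5 min percentile difference between -0.123 and 0.404 and the 60 min one between 0.283 and 0.295, and DRIP minus RNase H from 26 to 37.4 points. With lists cut to equal length (30314 DRIP and 473 RNase H peaks) all 10 genes passed the all-gene test, as did 49.7 percent of windows, since the RNase H lists are then short by construction. The all-gene test was not run without a replicate, because an exact permutation test of 3 lists against 3 cannot go below p = 0.1.

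With a replicate block (an exact sign-flip permutation test over paired libraries), DRIP minus RNase H of the same DNA was 31.7 points with p = 0.0312, the smallest that 6 pairs allow, and no window passed the all-gene test. That test has the same smallest p for each window, so after adjustment none could pass unless most windows reached it. The paired CPT comparisons gave exact p of 0.5 to 1, with 0.5 the smallest for 2 pairs, and changed no call. The body zone and the canonical-transcript window were added after the data had been seen. The lists do not give the depth of each library, and its part in these results was not tested.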

Other observations

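Over the 12 lists, the protein-coding windows outside those of the 10 genes whose coverage was most like their mean were RPS28 (Pearson's r = 0.995), a ribosomal protein gene, GSTP1 (0.991), a glutathione transferase gene, and HNRNPAB (0.99), an RNA-binding protein gene. Their coverage ran from 0% in at least 1 list to at most 93.3%, 65.2% and 92.8%. These lists share their libraries and list lengths, and the likeness is a description with no test.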
